A study of Mus musculus with 2 samples.

Results

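To determine which mammary stromal cells carry the transcripts of the R-spondin arm of canonical Wnt signalling, 9 genes were followed in single cells of pubertal and adult mouse mammary glands. The genes were 3 secreted R-spondins (*Rspo1*, *Rspo2* and *Rspo3*), their receptors (*Lgr4*, *Lgr5* and *Lgr6*), the membrane ubiquitin ligases *Rnf43* and *Znrf3*, and *Axin2*. They were chosen by symbol, and all 9 were among the 33696 genes counted in both libraries. Each library held stromal cells sorted as negative for CD24 and for the lineage markers CD31, CD45 and TER-119 from mammary glands of wildtype C57BL/6 females. One library came from puberty (4 weeks of age) and the other from virgin adults (9 weeks), both labelled replicate 2, and neither stage carried a treatment or a transgene. The labels give 2 females per condition and do not say how they divide between libraries. With 1 library per stage no difference between stages could be tested against the spread between animals, and stage, library and sort cannot be told apart. Every interval given here is a 95% interval that covers counting error only. Intervals of levels and their ratios treat UMIs as independent and do not cover the clustering of UMIs in few cells.

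R-spondins are secreted proteins that do not signal by themselves. They bind Lgr receptors and the ligases Rnf43 and Znrf3, which otherwise mark Frizzled receptors for removal from the cell surface. With the ligases cleared away, more Wnt receptor stays at the membrane and more beta-catenin reaches the nucleus. *Axin2*, a scaffold of the complex that degrades beta-catenin, is itself switched on by beta-catenin and is widely read as a reporter of canonical Wnt activity. *Rnf43*, *Znrf3* and *Lgr5* are also known as Wnt target genes. In the mammary gland, *Rspo1* is known as a signal that maintains mammary stem cells, *Lgr5* marks subsets of basal cells, and fibroblasts are a source of ligands for the neighbouring epithelium.

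After removal of cells with fewer than 500 genes or more than 10% mitochondrial UMIs (unique molecular identifiers, each standing for 1 captured transcript), 21534 pubertal and 22972 adult cells remained, with a median of 11763 and 10842.5 UMIs per cell. The libraries shared 145 cell barcodes before this filter and 143 after it. *Pdgfra*, a receptor found on fibroblasts across tissues, had at least 1 UMI in 18878 pubertal and 20999 adult cells, which are called Pdgfra+ cells below. Fibroblast markers that did not choose these cells were found in nearly all of them, *Dcn* in 99.9% and 99.6%, *Col1a1* in 99.95% and 99.5% and *Lum* in 98.35% and 97.6%. At least 2 of 5 epithelial markers were found in 0.0371% and 0.0238%. Within the Pdgfra+ cells, 6 overlapping subsets were cut by their own marker UMIs: *Pi16* with *Dpp4*, *Gdf10* or *Fmo2*, *Thbs4* or *Bmp5*, at least 2 UMIs of *Fabp4*, *Crabp1*, and *Frmpd4*. Their sizes differed between the stages. The Pi16+Dpp4+ subset made up 74.1% of pubertal and 42.2% of adult Pdgfra+ cells, the *Frmpd4* subset 5.19% and 25.1%, the *Crabp1* subset 1.53% and 12.7%, and the *Thbs4* or *Bmp5* subset 4.91% and 14.8%. The *Gdf10* or *Fmo2* subset (39.5% and 47.9%) and the *Fabp4* subset (9.42% and 12.2%) differed less. Levels are given as CPM, the UMIs of a gene for every 1e6 UMIs summed over a group of cells. They come from 3′ ends of transcripts and are compared between cells, not between genes.

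The genes lie at the following places in the mouse genome (GRCm38, GENCODE annotation), and each is protein coding. *Rspo1* spans chr4:124986430-125009099 on the plus strand, *Rspo2* chr15:43020794-43170826 on the minus strand and *Rspo3* chr10:29452416-29535867 on the minus strand. *Lgr4* spans chr2:109917647-110014257 (plus), *Lgr5* chr10:115450311-115587780 (minus) and *Lgr6* chr1:134983301-135105276 (minus). *Rnf43* spans chr11:87662722-87735539 (plus), *Znrf3* chr11:5276324-5444847 (minus) and *Axin2* chr11:108920349-108950783 (plus). *Rspo1*, *Rspo3*, *Lgr5*, *Rnf43* and *Axin2* each overlap a gene on the other strand, and *Rspo3* and *Rnf43* also overlap 1 each on their own strand. Those of these genes that were in the count table held at most 58 UMIs in Pdgfra+ cells of a library, and 1 each at *Rspo3* and *Rnf43* were not counted.

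The largest rise among the 9 genes was that of *Axin2*. It held 1635 UMIs in pubertal and 6322 in adult Pdgfra+ cells, or 6.91 CPM against 25.5 CPM, and was 3.70 times as high in the adult (3.50 to 3.91). Of the ligands, *Rspo1* was 2.08 times as high in the adult (1.89 to 2.29), with 617 pubertal UMIs at 2.61 CPM and 1343 adult UMIs at 5.425 CPM. *Rspo2* and *Rspo3* did not follow it. *Rspo2* stood at 1.69 CPM and 1.71 CPM (ratio 1.01, 0.882 to 1.17), and *Rspo3* at 9.46 CPM and 9.88 CPM (ratio 1.04, 0.986 to 1.11). Thus only 1 of the 3 ligands passed a 1.5-fold difference.

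The receptors moved in different directions. *Lgr4*, the receptor with the broadest expression in adult tissues, was at 53.8 CPM (52.8 to 54.7) in puberty and 43.1 CPM (42.2 to 43.9) in the adult, a ratio of 0.801 (0.780 to 0.822) that did not reach 1.5-fold. *Lgr5*, known from epithelial stem cells, was at 6.405 CPM (6.09 to 6.74) and 10.2 CPM (9.82 to 10.6), a ratio of 1.595 (1.496 to 1.70). *Lgr6* was near the limit of detection, with 167 pubertal and 50 adult UMIs, and fell from 0.706 CPM to 0.202 CPM (ratio 0.286, 0.204 to 0.395). The ligases also went opposite ways. *Znrf3* was at 21.5 CPM at puberty and at 36.4 CPM in the adult, which made it 1.69 times as high (1.63 to 1.75). *Rnf43* was barely found, with 58 UMIs in the pubertal and 25 in the adult cells (ratio 0.412, 0.247 to 0.669).

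In all, 4 of the 9 genes were at least 1.5-fold higher in the adult and 2 were at least 1.5-fold lower. Over the 18048 genes with at least 50 UMIs in Pdgfra+ cells, 20.1% were higher and 10.3% lower by the same measure. The median log2 ratio was 0.06 for the 9 genes and 0.17 for all genes tested, and TMM scaling would take 0.14 from every log2 ratio. Under that scaling *Lgr5*, at a ratio of 1.45, no longer passed 1.5-fold. The share of cells with a transcript was read after each cell had been thinned to 3000 UMIs, so that depth was equal. *Axin2* was found in 2.13% (1.93 to 2.35) of pubertal and 7.76% (7.40 to 8.14) of adult Pdgfra+ cells, *Rspo1* in 0.728% and 1.57%, *Lgr5* in 0.890% and 1.45%, and *Znrf3* in 5.73% and 10.1%. *Lgr4* was found in 14.15% and 10.6%, *Rspo3* in 2.77% and 2.605%, *Rspo2* in 0.421% and 0.292% and *Lgr6* in 0.1995% and 0.0146%. By these shares the same 4 genes were at least 1.5-fold higher, and *Lgr6* was lower. The share of all genes past 1.5-fold by this measure was not computed. *Rnf43* was found in 9 cells of each library. Without thinning the shares were 7.36% and 21.0% for *Axin2*, 2.74% and 5.24% for *Rspo1*, 2.04% and 2.81% for *Lgr5*, 18.4% and 26.6% for *Znrf3* and 39.98% and 29.9% for *Lgr4*.

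Free RNA can place a UMI in a cell that does not make the transcript, and skeletal muscle-like cells without *Pdgfra* served as a comparison. Their median was 5360 UMIs at puberty and 5262 in the adult, against 12187 and 11265 in Pdgfra+ cells. After thinning, 0 of 45 pubertal and 0 of 113 adult muscle-like cells held any of *Rspo1*, *Rspo2*, *Rspo3*, *Lgr5*, *Lgr6*, *Rnf43* and *Axin2*, which allows shares of up to 7.87% and 3.21%. The adult *Axin2* share lay above that limit, whereas for the rarer genes so few muscle-like cells could not tell their shares from background. Pdgfra-negative cells with *Myh11* or *Rgs5*, described below, were more numerous. They held *Rspo3* in 0.138% (up to 0.764) and 0.267% (up to 1.48) after thinning, below its shares in Pdgfra+ cells. *Lgr5* was found in 1.24% and 3.21% of them, not below its shares in Pdgfra+ cells. Without the cells of this gate that held at least 2 epithelial markers, its shares were 0.556% (0.152 to 1.42) and 1.16% (0.316 to 2.93). These were lower than in Pdgfra+ cells, with intervals that span the Pdgfra+ shares. *Znrf3* was found in 26.7% and 21.2% of the muscle-like cells, and *Lgr4* in 9 of the 45 and 18 of the 113. Muscle cells are not known to lack these genes, so they gave no background for them.

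**Figure D1:**
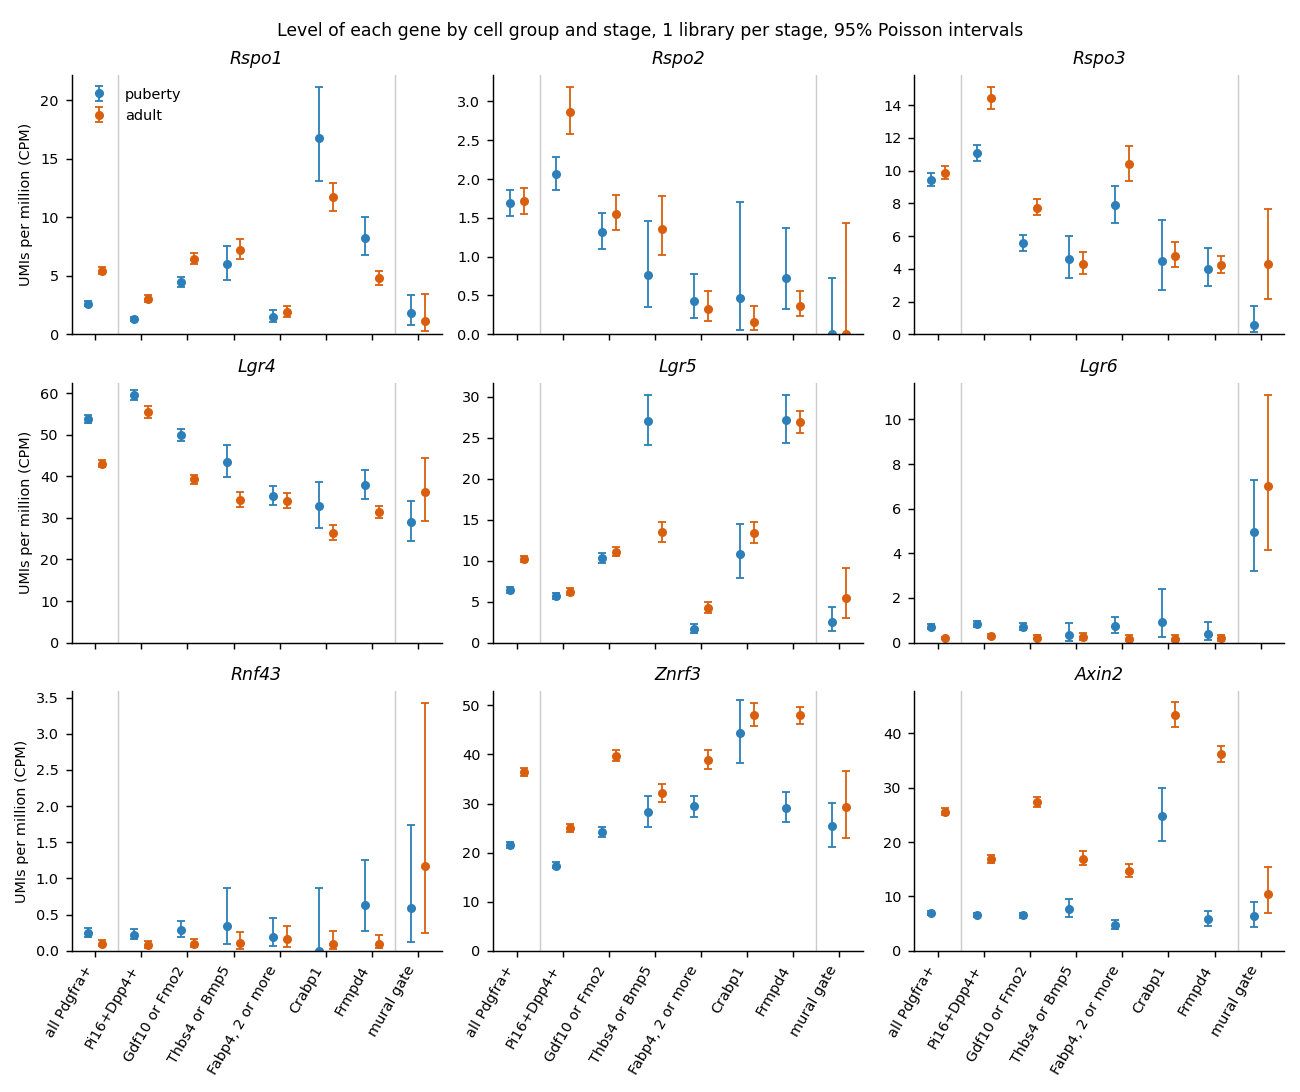
Level of each of the 9 genes (y axis, CPM, each panel with its own scale from 0) in all Pdgfra+ cells, in the 6 subsets and in the mural gate without cells holding 2 epithelial markers (x axis), for the pubertal library (blue) and the adult library (orange), with 95% Poisson intervals. *Axin2* lies higher in the adult in each of the 6 subsets, *Rspo1* is highest in the *Crabp1* subset, *Rspo2* and *Rspo3* are highest in the Pi16+Dpp4+ subset, and *Lgr5* stands out in the *Frmpd4* subset of both libraries. The high pubertal *Lgr5* value of the *Thbs4* or *Bmp5* subset, 27.1 CPM, holds 172 UMIs of 1 cell.

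Since the subsets changed size between the stages, each gene was next read within them. A ratio past 1.5-fold was found in 16 of the 42 combinations of gene and subset that had at least 50 UMIs, 11 higher and 5 lower in the adult. *Axin2* accounted for 6 of the 11. It was higher in the adult in every subset, from 24.8 CPM to 43.3 CPM in the *Crabp1* subset (ratio 1.75, 1.43 to 2.15) up to 5.84 CPM to 36.2 CPM in the *Frmpd4* subset (ratio 6.19, 4.90 to 7.93). Between these lay the *Thbs4* or *Bmp5* subset (7.745 CPM and 16.95 CPM, ratio 2.19), the Pi16+Dpp4+ subset (6.64 CPM and 16.9 CPM, ratio 2.55), the *Fabp4* subset (4.78 CPM and 14.7 CPM, ratio 3.08) and the *Gdf10* or *Fmo2* subset (6.502 CPM and 27.3 CPM, ratio 4.202). Of all genes read in the Pi16+Dpp4+ subset, 18% were higher and 8.13% lower, and in the *Gdf10* or *Fmo2* subset 17.5% and 10%. These shares were 10.7% and 7.62% in the *Thbs4* or *Bmp5* subset, 13.1% and 7.89% in the *Fabp4* subset, 13.1% and 8.7% in the *Crabp1* subset, and 16.6% and 8.36% in the *Frmpd4* subset. The 6 subsets overlap, and a cell could count in more than 1 of them. In the *Crabp1* subset the ratio of *Axin2* was 1.10 when only cells of that 1 subset were kept and 1.23 when at least 2 *Crabp1* UMIs were asked for, and in the *Fabp4* subset it was 1.46 for cells of 1 subset only.

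The pubertal level of *Axin2* was thus already high in 1 subset. At puberty the *Crabp1* cells held 24.8 CPM (20.3 to 29.98), against 4.78 CPM to 7.745 CPM in the other 5 subsets, and their interval lay above those of all 5. In the adult the order was *Crabp1* (43.3 CPM, 41.1 to 45.6), *Frmpd4* (36.2 CPM, 34.7 to 37.7) and *Gdf10* or *Fmo2* (27.3 CPM, 26.4 to 28.2), with the remaining subsets between 14.7 CPM and 16.95 CPM. The intervals of the *Thbs4* or *Bmp5* (15.7 to 18.3 CPM), Pi16+Dpp4+ (16.2 to 17.7 CPM) and *Fabp4* (13.5 to 15.98 CPM) subsets overlapped, except that *Fabp4* lay below Pi16+Dpp4+. The *Frmpd4* subset, which was among the low ones at puberty (5.84 CPM, 4.58 to 7.35), took the second place in the adult.

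The sequence before the *Axin2* start is shown because this was the gene with the largest rise. RefSeq promoters (GRCm38.p6) could be matched for 5 of the 9 genes, *Rspo1*, *Lgr4*, *Lgr6*, *Rnf43* and *Axin2*. The 250 bases before each start were searched on both strands for CTTTG, the core of the Tcf and Lef binding motif, and for its longer forms CTTTGAA and CTTTGAT, which contain the core. None of these promoters, of which *Rnf43* has more than 1, held a match, where 48.6% of 32851 promoters held the core and 7.48% a longer form. For *Axin2* the window is chr11:108920099-108920348 on the plus strand, printed in lower case since no motif was found to capitalise.

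Axin2: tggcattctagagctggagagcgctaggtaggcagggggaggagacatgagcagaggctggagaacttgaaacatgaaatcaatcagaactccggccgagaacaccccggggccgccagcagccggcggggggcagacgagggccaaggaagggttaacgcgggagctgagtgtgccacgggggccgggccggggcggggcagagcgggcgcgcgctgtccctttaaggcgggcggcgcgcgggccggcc

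The other genes of the set did not share this pattern. *Znrf3* passed 1.5-fold in the *Gdf10* or *Fmo2* subset (24.2 CPM and 39.7 CPM, ratio 1.64, 1.56 to 1.72) and in the *Frmpd4* subset (29.1 CPM and 47.9 CPM, ratio 1.645, 1.47 to 1.84), while in the *Crabp1* subset it was at 44.4 CPM and 48.1 CPM (ratio 1.08, 0.931 to 1.27). *Lgr4* was below 1.5-fold in every subset, with ratios from 0.787 to 0.967. *Rspo3* also stayed within 1.5-fold in all 6, from 0.938 to 1.39. *Lgr6* was lower in both subsets in which it had enough UMIs, Pi16+Dpp4+ (ratio 0.353, 0.237 to 0.514) and *Gdf10* or *Fmo2* (0.318, 0.198 to 0.501). *Rnf43* reached the minimum in the Pi16+Dpp4+ subset alone, with 41 pubertal and 9 adult UMIs (ratio 0.330). *Lgr5* was higher in the *Fabp4* subset (1.685 CPM and 4.275 CPM, ratio 2.54, 1.80 to 3.64). *Rspo2* passed 1.5-fold in the *Thbs4* or *Bmp5* subset on 9 and 53 UMIs, 27 of them in 1 adult cell, with an interval that spans 1 (ratio 1.775, 0.868 to 4.09). With cells of 1 subset only, *Lgr6* in Pi16+Dpp4+ cells alone of the 5 lower combinations still had 50 UMIs, and with cells thinned before the subsets were cut none had. The *Znrf3* ratio in the *Gdf10* or *Fmo2* subset was 1.26 with cells of 1 subset only, 1.40 after thinning and 1.47 with at least 2 UMIs of the markers. That of *Lgr5* in the *Fabp4* subset was 1.20 with at least 3 *Fabp4* UMIs.

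*Rspo1* took different directions. It rose from 1.31 CPM to 3.05 CPM in Pi16+Dpp4+ cells (ratio 2.32, 1.97 to 2.74) and fell from 8.24 CPM to 4.78 CPM in the *Frmpd4* subset (ratio 0.580, 0.462 to 0.734). In thinned cells the *Frmpd4* value rested on 6 and 41 UMIs (ratio 0.885). The *Crabp1* subset, which had the highest level at both stages, held 16.75 CPM (13.1 to 21.1) and 11.7 CPM (10.5 to 12.9). When the 6 subsets were given equal weight, the ratio of *Rspo1* in Pdgfra+ cells was 0.918 instead of 2.08. The share of cells in the *Crabp1* subset, with the most *Rspo1*, went from 1.53% to 12.7%. The *Frmpd4* and *Thbs4* or *Bmp5* subsets also had larger shares in the adult. Whether subset sizes account for the *Rspo1* ratio was not tested. With equal weight *Lgr5* was at 0.909, *Znrf3* at 1.34 and *Axin2* at 2.76. A pubertal cell with 172 *Lgr5* UMIs, described below, counts in the Pi16+Dpp4+, *Gdf10* or *Fmo2* and *Thbs4* or *Bmp5* subsets. The equal-weight ratio of *Lgr5* without this cell was not computed. Of the 4 genes that were higher over all cells, *Axin2* was the one that kept a ratio over 1.5 under this weighting.

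**Figure D2:**
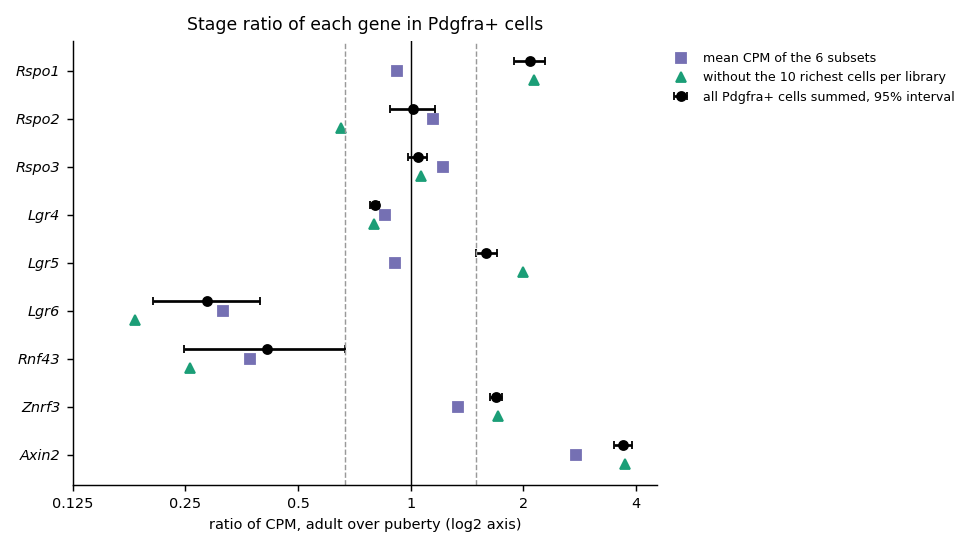
Ratio of adult to pubertal CPM in Pdgfra+ cells (x axis, log2 scale) for the 9 genes (y axis). Black circles sum all cells, with 95% intervals, purple squares give the 6 subsets equal weight, green triangles leave out the 10 cells per library with the most UMIs of the gene, and dashed lines mark 1.5-fold. *Axin2* stays above 1.5 in all 3 readings, *Lgr6* and *Rnf43* stay below the lower line, and *Rspo1* and *Lgr5* lie at 0.918 and 0.909 with equal weights. The equal-weight value of *Lgr5* includes a pubertal cell with 172 UMIs that counts in more than 1 subset.

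Next, each gene was compared between a subset and the Pdgfra+ cells outside it, in each library by itself. A difference counted when it was at least 2-fold in the same direction in both libraries, and 48 combinations (8 genes, *Rnf43* having too few UMIs) could be read. In all, 5 were higher and 8 lower, and these divided the ligands. *Rspo2* was higher in Pi16+Dpp4+ cells than outside them, 2.06 CPM against 0.456 CPM at puberty (ratio 4.52, 3.01 to 7.07) and 2.87 CPM against 0.608 CPM in the adult (ratio 4.72, 3.68 to 6.12). *Rspo3* was higher there too, 11.1 CPM against 4.14 CPM (ratio 2.67) and 14.4 CPM against 5.54 CPM (ratio 2.60). *Lgr6* shared this direction at low counts, with ratios of 2.49 and 2.44. *Rspo1* was lower in these cells, 1.31 CPM against 6.90 CPM (ratio 0.190) and 3.05 CPM against 7.69 CPM (ratio 0.397). Among all 15847 genes, 4.62% were higher and 7.52% lower in Pi16+Dpp4+ cells of both libraries. When cells were thinned to 3000 UMIs before the subsets were cut, the ratios of *Rspo2* (1.58 and 2.51) and *Lgr6* (1.999 and 1.26) no longer passed 2-fold in both libraries. *Pi16* and *Dpp4* mark fibroblasts that are regarded as progenitors in many tissues.

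The *Crabp1* subset showed the opposite arrangement. *Rspo1* was higher in it, 16.7 CPM against 2.35 CPM at puberty (ratio 7.13) and 11.7 CPM against 4.48 CPM in the adult (ratio 2.605). *Rspo2* (ratios 0.276 and 0.0791, from 2 and 5 UMIs in the subset) and *Rspo3* (0.470 and 0.451) were lower, where 4.69% of all genes were higher and 7.85% lower. The *Rspo3* call was lost under 3 alternatives, its ratios being 0.661 and 0.557 after thinning. In the *Frmpd4* subset *Rspo2* and *Rspo3* were again lower (0.413 and 0.173 for *Rspo2*, 0.410 and 0.362 for *Rspo3*), beside 2.76% of all genes. *Rspo3* was also lower in the *Thbs4* or *Bmp5* subset (0.473 and 0.3945), where 2.37% of all genes were higher and 1.31% lower. *Rspo2* was lower in the *Fabp4* subset (0.234 and 0.1635), where 2.74% were higher and 3.98% lower. In the *Gdf10* or *Fmo2* subset none of the 8 genes passed in both libraries, beside 1.35% of all genes higher and 0.77% lower, and *Rspo1* had ratios of 3.49 at puberty and 1.47 in the adult there. *Crabp1* encodes a binding protein for retinoic acid, and *Fabp4* a fatty acid carrier known from adipocytes and their precursors.

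*Lgr5* was higher in both libraries in 1 subset and lower in 1. In *Frmpd4* cells it stood at 27.2 CPM (24.4 to 30.3) against 5.25 CPM outside at puberty and at 26.9 CPM (25.6 to 28.3) against 4.93 CPM in the adult, ratios of 5.19 and 5.46. Its stage ratio in these cells was 0.989 (0.879 to 1.12), or 1.17 (1.03 to 1.34) without the richest cell of each library. The share of *Frmpd4* cells differed between the stages. Whether that share accounts for the *Lgr5* ratio over all Pdgfra+ cells was not tested. Of all genes, 1.27% were higher in the *Frmpd4* subset of both libraries. *Lgr5* was lower in the *Fabp4* subset (ratios 0.242 and 0.379), which held its lowest level at both stages. *Lgr4* differed by less than 2-fold in every subset, with ratios from 0.581 to 1.78. *Znrf3* passed 2-fold at puberty alone, in the Pi16+Dpp4+ (0.493) and *Crabp1* (2.10) subsets. The receptor and the ligase stood opposite in Pi16+Dpp4+ cells. *Lgr4* was at 59.6 CPM inside and 34.5 CPM outside at puberty, and *Znrf3* at 17.4 CPM inside and 35.2 CPM outside. In the adult the values were 55.5 CPM and 31.2 CPM for *Lgr4*, and the ratio of *Znrf3* was 0.529.

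The UMIs of *Lgr5* were concentrated in few cells. At puberty 63 Pdgfra+ cells had 5 or more *Lgr5* UMIs and held 996 of the 1516, and in the adult 135 such cells held 1738 of 2529. One pubertal cell alone held 172. For comparison, 0.428% of the pubertal and 3.12% of the adult *Axin2* UMIs came from cells with 5 or more. The single pubertal cell lay in the Pi16+Dpp4+, *Gdf10* or *Fmo2* and *Thbs4* or *Bmp5* subsets. In the *Thbs4* or *Bmp5* subset *Lgr5* read 27.1 CPM in puberty and 13.5 CPM in the adult (ratio 0.498, 0.432 to 0.574). Without the richest cell of each library the values were 12.4 CPM and 11.4 CPM (ratio 0.920, 0.761 to 1.12), so the lower adult level of *Lgr5* there rested on these cells. Over all Pdgfra+ cells the ratio of *Lgr5* became 1.73 (1.62 to 1.85) without the richest cell of each library, which held 172 and 96 UMIs. *Rspo2* showed the same feature in the adult, with 61 of its 424 UMIs in 1 cell and 42.0% in the richest 10. When the richest 10 cells of each library were left out, the ratio of *Rspo2* fell from 1.01 to 0.653.

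Cells with 5 or more *Lgr5* UMIs were then placed among the subsets. In the adult 69.6% of them (61.1 to 77.2) lay in the *Frmpd4* subset, which held 25.1% of all Pdgfra+ cells. At puberty the share was 27.0% (16.6 to 39.6) beside 5.19% of all cells. In Pi16+Dpp4+ cells their share was 33.3% (25.5 to 42.0) in the adult and 61.9% (48.8 to 73.85) at puberty, with upper bounds just below the 42.2% and 74.1% of all cells.

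Pairs of the genes were next counted in cells thinned to 3000 UMIs. Of 135 pubertal cells with *Rspo1*, 1 had *Rspo3*, and of 323 adult cells, 3 had it (0.929%, 0.192 to 2.69), beside 2.605% of all adult Pdgfra+ cells. The interval includes that share, so a separation of the ligands between single cells was not detectable at this depth. Cells with *Rspo1* lay mostly in the *Gdf10* or *Fmo2* subset (77.8% at puberty and 60.7% in the adult, beside 39.8% and 48.2% of all thinned cells). In the adult 19.8% (15.6 to 24.6) of them had a *Crabp1* UMI, beside 6.79% of cells without *Rspo1*. Cells with *Rspo3* lay in the Pi16+Dpp4+ subset (89.1% and 71.3%, beside 74.6% and 42.8% of all cells), and so did cells with *Rspo2* (72 of 78 and 51 of 60).

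*Lgr5* and *Axin2* met in more cells in the adult, where *Axin2* itself was found in more cells. Of 299 adult cells with *Lgr5*, 52 had *Axin2* (17.4%, 13.3 to 22.2), beside 7.62% of cells without *Lgr5*. Of 165 pubertal cells with *Lgr5*, 5 had *Axin2* (3.03%, 0.991 to 6.93), beside 2.12% of cells without it, and the interval spans that value. These 5 cells were too few to compare the excess between the stages. *Frmpd4* cells and other cells were then read apart, a split made after the first values were seen. Among adult *Frmpd4* cells, *Axin2* was found in 19.2% (13.9 to 25.4) of 193 cells with *Lgr5* and in 10.0% (9.21 to 10.9) of 4996 without it. Among the other adult cells it was found in 14.15% (8.14 to 22.3) of 106 cells with *Lgr5* and in 6.83% (6.44 to 7.25) of 15278 without it. The excess was thus seen on both sides of the split, and at puberty the intervals of both sides (2.56% of 39 cells, 0.0649 to 13.5, and 3.175% of 126 cells, 0.872 to 7.93) spanned the shares without *Lgr5* (1.615% and 2.15%).

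Cells with a ligand showed no excess of *Axin2* beyond the interval. Adult cells with *Rspo1* had *Axin2* in 5.88% (3.58 to 9.03) and cells with *Rspo3* in 5.04% (3.35 to 7.25), beside 7.76% of all adult Pdgfra+ cells. The adult *Rspo3* interval thus lay below the share of all cells, whereas the pubertal one (0.430 to 2.53) spanned it (2.13%). *Lgr4* and *Axin2* met in 6.08% (5.11 to 7.16) of adult cells with *Lgr4*, against 7.96% of cells without it. *Znrf3* and *Axin2* met in 10.7% (9.44 to 12.2) of adult cells with *Znrf3*, against 7.43% of cells without it.

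**Figure D3:**
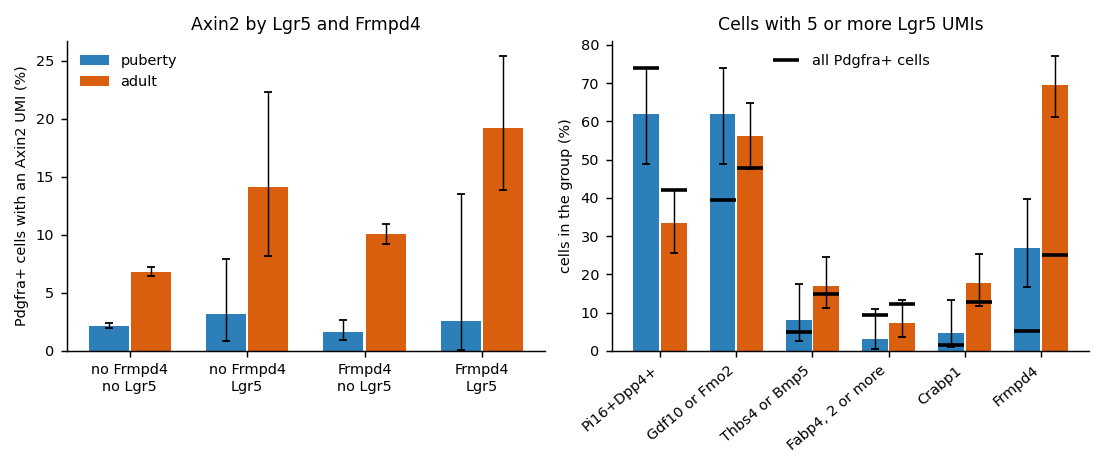
Left, percentage of Pdgfra+ cells with an *Axin2* UMI after thinning to 3000 UMIs (y axis, from 0), split by *Frmpd4* subset and *Lgr5* (x axis), in puberty (blue) and adult (orange). Right, percentage of cells with 5 or more *Lgr5* UMIs that lie in each subset (bars) beside that of all Pdgfra+ cells (black marks). Error bars are 95% Clopper-Pearson intervals, and the adult *Lgr5* bars of the left panel reach 19.2% and 14.15%, while 69.6% of the adult *Lgr5*-rich cells lie in the *Frmpd4* subset.

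The genes that were most enriched in the same cells set the members in context. For each gene with at least 100 positive cells per library after thinning, the 5 genes with the highest smaller ratio of the libraries were taken, among genes with at least 20 CPM in the positive cells. Cells with *Axin2* were richest in *Igfbp2* (ratios 8.09 at puberty and 3.525 in the adult), an insulin-like growth factor binding protein, followed by *Lgr5* itself (5.88 and 3.45), *Nos1*, *Col25a1* and *Pla2g7*. At puberty the *Lgr5* value rested on 38 UMIs in 5 cells, and the share of cells with both genes showed no excess beyond its interval. Cells with *Lgr5* were richest in *Pappa2* (8.81 and 23.2), a protease that cleaves insulin-like growth factor binding proteins, then *Chrm2*, *Masp1*, *Frmpd4* (5.85 and 3.34) and *Ptgfr*. Cells with *Rspo1* were rich in *Ndnf* (6.82 and 5.36), *Rgs16*, *Crabp1* (7.44 and 4.29) and *Hhip*, an inhibitor of Hedgehog ligands. At puberty *Crabp1* was found in 7 of the 135 cells with *Rspo1*, and the companion ratios carry no interval. Cells with *Rspo3* were richest in *4930404H11Rik* (2.96 and 3.77), *Adamts16*, *Bmp3*, *Spock3* and *Inpp4b*. For *Znrf3* the leading genes were *Mylk*, *St6galnac3*, *Gria1*, *Gna14* and *Fam13a*, with smaller ratios from 1.75 to 1.95. None of the 5 leading companions of *Lgr4* reached a ratio of 2 in either library, the first being *Bmp6* (1.43 and 1.63). *Rspo2*, *Lgr6* and *Rnf43* had too few positive cells.

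Across the 14 sums of 7 cell groups and 2 libraries, which share cells between overlapping subsets, the genes whose log2(CPM + 1) was most like that of a member were found by Pearson's r. They were *Sp3* (0.949), *Mau2* and *Pla2g12a* for *Axin2*, *Nrp2* (0.977), *Xpr1* and *Cx3cl1* for *Znrf3*, *Lepr* (0.877), *Nedd9* and *Piezo2* for *Lgr5*, and *Aff3* (0.932) and *Mmp16* for *Rspo1*. *Rspo3* was followed by *Optn* (0.957), *Dync1h1* and *Ppp2r2b*, and *Lgr4* by *Edem2* (0.916), *Hs3st3b1* and *Trpm3*. For *Lgr6* these were *Il17b* (0.987), *Slc35f1* and the basal keratin *Krt5*, and for *Rnf43* they were *St14* (0.988), *Kit* and *Ptger2*. Both had their highest level in the adult mural sum (21.8 CPM and 10.2 CPM), whose epithelial cells are described next. *Rspo2* stayed under the minimum of 10 CPM in every sum and was not compared. With 14 dependent points these values are descriptions.

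The Pdgfra-negative cells with *Myh11* or *Rgs5*, the gate for mural cells of blood vessels, numbered 783 at puberty and 457 in the adult. Of the mural markers that did not define the gate, *Acta2* was at 7041 CPM and 5244 CPM, against 25.6 CPM and 12.6 CPM in Pdgfra+ cells, and *Notch3* at 403.9 CPM and 492.8 CPM, against 4.998 CPM and 5.39 CPM. *Abcc9* did not separate them at puberty, with 37.65 CPM in the gate and 68.7 CPM in Pdgfra+ cells. The gate also held cells with at least 2 of 5 epithelial markers, 7 at puberty and 30 in the adult, and the epithelial markers summed to 34.9 CPM and 610 CPM. At least 2 fibroblast markers were found in 43.4% and 37.4% of its cells. *Myh11* is also a gene of myoepithelial cells. In the adult these 30 cells held 47 of the 61 *Lgr5* UMIs of the gate, 46 of the 64 *Lgr6* UMIs and 27 of the 30 *Rnf43* UMIs. At puberty the 7 cells held 22 of the 35 *Lgr5* UMIs.

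With all cells of the gate, the 5 genes with at least 50 UMIs were each over 1.5-fold higher in the adult, beside 16.2% of all genes higher and 6.29% lower. *Lgr4* was at 30.4 CPM and 54.2 CPM (ratio 1.78, 1.42 to 2.24), *Lgr6* at 6.08 CPM and 21.8 CPM (3.59, 2.30 to 5.70), *Lgr5* at 6.86 CPM and 20.8 CPM (3.03, 1.97 to 4.73) and *Znrf3* at 25.7 CPM and 42.3 CPM (1.645, 1.28 to 2.12). Without the cells holding epithelial markers, *Lgr4* (28.9 CPM and 36.3 CPM, ratio 1.255, 0.957 to 1.64) and *Znrf3* (25.3 CPM and 29.2 CPM, ratio 1.15, 0.856 to 1.55) were within 1.5-fold. *Lgr5* and *Lgr6* were then under the minimum, with 13 and 14 UMIs for *Lgr5* and 25 and 18 UMIs for *Lgr6*. *Axin2* had a ratio of 1.58 (0.931 to 2.67) with all cells and of 1.66 (0.958 to 2.86) without these, both with intervals that span 1. *Lgr6* was higher in the gate than in fibroblasts at both stages, also without the epithelial cells (4.95 CPM, 3.20 to 7.31, and 7.02 CPM, 4.16 to 11.1, against 0.706 CPM and 0.202 CPM in Pdgfra+ cells). *Rspo2* had no UMI in the gate in either library, which allows up to 0.723 CPM and 1.26 CPM.

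To place the 9 genes among their pathway, 3 further lists were read in Pdgfra+ cells. Of 11 feedback and target genes of beta-catenin, 8 had at least 50 UMIs, and 4 of these were higher and 0 lower in the adult, beside 20.1% and 10.3% of all genes. *Tnfrsf19*, a receptor of the tumour necrosis factor family, rose from 0.731 CPM to 11.0 CPM (ratio 15.02, 12.9 to 17.6). *Tcf7*, a nuclear partner of beta-catenin, rose from 0.541 CPM to 4.86 CPM (8.99, 7.48 to 10.9), and *Nkd2*, a Dishevelled inhibitor, from 3.82 CPM to 21.6 CPM (5.65, 5.26 to 6.07). *Nkd1* rose from 11.45 CPM to 19.2 CPM (1.68, 1.60 to 1.76). Of the other 7 genes of the list, 4 could be read. *Apcdd1* was at a ratio of 0.956, *Ccnd1* at 0.869, *Bambi* at 0.7545 and *Myc* at 0.688, none past 1.5-fold. *Lef1*, *Notum* and *Sp5* were under the minimum, with 10 and 11, 12 and 21, and 2 and 23 UMIs in the libraries. *Sp5* had a ratio of 11.0 (2.72 to 96.2) on these counts. The median log2 ratio of the list was 0.34.

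Of 23 receptors and transducers, 22 could be read, 4 were higher and 1 lower, with a median log2 ratio of 0.175, near the 0.17 of all genes. The higher ones were the Frizzled receptors *Fzd1* (28.8 CPM and 51.7 CPM, ratio 1.80) and *Fzd3* (7.26 CPM and 11.3 CPM, 1.55), the co-receptor *Lrp5* (7.86 CPM and 15.4 CPM, 1.95) and the transcription factor *Tcf7l2* (151 CPM and 234 CPM, 1.55). *Fzd6* was lower (1.53 CPM and 0.380 CPM, ratio 0.248). *Ctnnb1*, which encodes beta-catenin, had a ratio of 0.978, and of the complex that degrades it *Axin1* was at 1.01, *Apc* at 1.19, *Gsk3a* at 1.34, *Gsk3b* at 1.275 and *Csnk1a1* at 1.17, all within 1.5-fold. The third list held the remaining R-spondin *Rspo4* and the R-spondin binding partners *Sdc4* and *Bmpr1a*. *Rspo4* was higher, on 48 and 97 UMIs (0.203 CPM and 0.392 CPM, ratio 1.93, 1.35 to 2.79), although its ratio was 0.837 with equal weight for the subsets, while *Sdc4* (1.21) and *Bmpr1a* (1.22) were within 1.5-fold. With equal weight 4 pathway genes were higher and 2 lower, instead of 9 and 1. The share of all genes under that weighting was not computed.

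The 4 feedback genes that rose were followed through the subsets beside *Axin2*, after their values over all cells had been seen. *Tcf7* and *Tnfrsf19* were higher in all 6 subsets and *Nkd2* in 5. The smallest ratios of *Tcf7* (2.27), *Nkd2* (1.405) and *Tnfrsf19* (1.98) were found in the *Crabp1* subset, as was that of *Axin2*. In this subset their pubertal levels were already the highest of the 6, 9.20 CPM for *Tcf7*, 38.9 CPM for *Nkd2* and 19.3 CPM for *Tnfrsf19*. *Nkd1* stayed within 1.5-fold in each subset, from 1.16 to 1.48, although it passed it over all cells. In adult cells with *Axin2*, *Tnfrsf19* was at 40.3 CPM against 12.3 CPM in the other Pdgfra+ cells (ratio 3.29), *Nkd2* at 59.1 CPM against 22.4 CPM (2.64), *Tcf7* at 11.1 CPM against 4.95 CPM (2.23) and *Nkd1* at 37.1 CPM against 19.6 CPM (1.89). *Lgr4* was at 33.6 CPM against 42.5 CPM (0.792). *Znrf3* was at 59.3 CPM against 38.35 CPM (1.55). These 4 genes, chosen because they rose with stage, were thus each higher in the adult cells with *Axin2*, as was *Znrf3*, and *Lgr4* was not. The rest of the list was not read this way, nor was the share of all genes. In the adult 21.4% of cells with *Axin2* lay in the *Crabp1* subset, beside 12.9% of all cells, and no comparison was made within subsets. Ratios of the 4 genes at puberty, from 2 to 25 UMIs in the cells with *Axin2*, ran from 1.74 for *Nkd1* to 8.75 for *Tnfrsf19*.

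**Figure D4:**
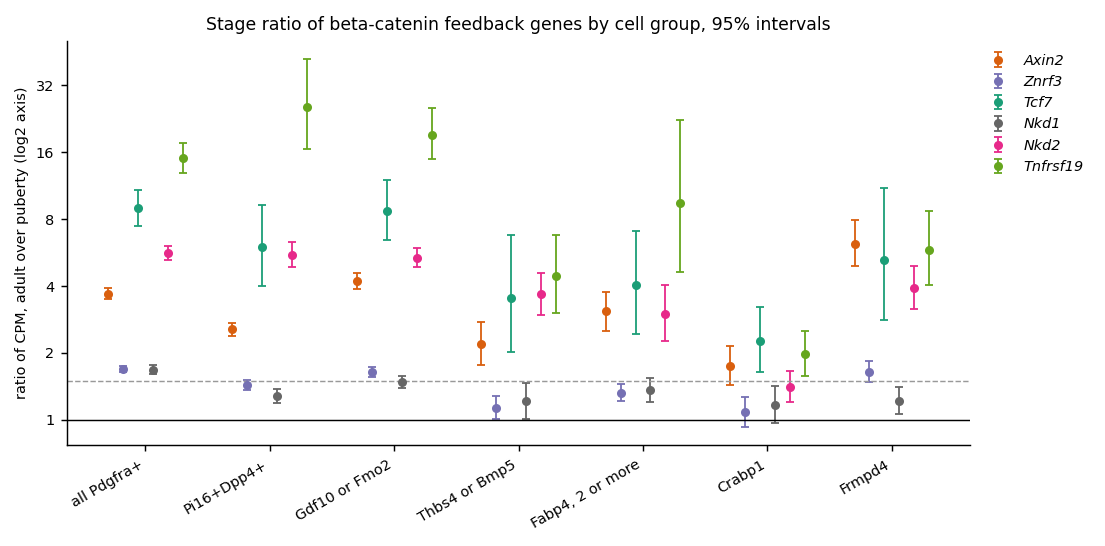
Ratio of adult to pubertal CPM (y axis, log2 scale) of *Axin2*, *Znrf3* and the 4 feedback genes *Tcf7*, *Nkd1*, *Nkd2* and *Tnfrsf19* in all Pdgfra+ cells and in the 6 subsets (x axis), with 95% intervals and a dashed line at 1.5-fold. *Axin2*, *Tcf7* and *Tnfrsf19* lie above the line in every group, and the ratios of *Nkd1* and *Znrf3* in the subsets reach at most 1.48 and 1.645.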

How the data were processed

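Single-cell RNA libraries were made with the 10x Genomics Chromium GEM-X 3′ v4 kit per the labels, and the submitters' processing notes name Cell Ranger 8.0.1 and the mm10 genome. The authors deposited unnormalized counts of UMIs for each gene in each barcode, 21688 barcodes with 255274670 UMIs for puberty and 23183 with 259549498 for the adult. Cells with at least 500 genes and at most 10% mitochondrial UMIs were kept. No doublets were removed in the main analysis: Scrublet (scanpy 1.11.5) set a threshold that marked 0 pubertal barcodes, so removal of the 8.67% and 9.27% with the highest scores was used as an alternative only. Counts were summed over the cells of each group and stage and divided by their total. Poisson and Clopper-Pearson intervals (exact) were used for levels and shares, and conditional binomial intervals for ratios (scipy 1.17.1). With 1 library per stage no p-value was computed. A gene was called higher or lower between stages at a ratio of 1.5 with at least 50 UMIs over both libraries, and between a subset and the other Pdgfra+ cells at 2-fold in both libraries. Muscle-like cells were Pdgfra-negative cells outside the mural gate with at least 3 of 5 markers. TMM factors came from edgeR 4.0.16. The ratio scripts were tested on simulated Poisson sums. These hold no clustering of UMIs in cells, so the intervals were not tested for genes with such clustering. All 9 members were named always, companions and like genes by the rules given beside them, and of the pathway lists each gene called, with others chosen after their values were seen. Some genes these rules name for *Rspo1* are not reported here. The members and lists were chosen with earlier results of these data known. Alternatives covered scaling, weighting, filters, doublets, marker thresholds, exclusive subsets and thinning. Leaving out mural cells with epithelial markers, or the richest 1 or 10 cells, was added after seeing the data.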

Additional observations from a re-analysis of the deposited data

Results flagged for a closer look

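Stage ratios (adult over puberty) that went opposite ways in different groups of cells, with intervals that excluded 1, were looked at again, and none of these differences was tested, since each stage had 1 library. *Rspo1* was higher in the adult in Pi16+Dpp4+ cells (2.32) and *Gdf10* or *Fmo2* cells (1.445) and lower in *Crabp1* cells (0.697) and *Frmpd4* cells (0.580). *Lgr4* was higher in the mural gate (1.78) and lower in the Pi16+Dpp4+ (0.931), *Gdf10* or *Fmo2* (0.787), *Thbs4* or *Bmp5* (0.790), *Crabp1* (0.807) and *Frmpd4* (0.831) subsets. *Lgr6* was higher in the mural gate (3.59) and lower in the Pi16+Dpp4+ (0.353) and *Gdf10* or *Fmo2* (0.318) subsets. In the mural gate, cells with 2 epithelial markers went from 7 to 30. Without them the ratio of *Lgr4* was 1.255, and *Lgr6* had too few UMIs. *Lgr5* was higher in *Fabp4* cells (2.54) and in the mural gate (3.03) and lower in *Thbs4* or *Bmp5* cells (0.498). In the last subset 172 of the 318 pubertal UMIs came from 1 cell, and the ratio was 0.920 without the richest cell of each library.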

How the results depend on the processing

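No paired analysis was possible because the stages share only 1 replicate number, and no library could be left out with 1 per stage. Under equal weight for each subset the ratio of *Rspo1* went from 2.08 to 0.918, that of *Lgr5* from 1.595 to 0.909 and that of *Rspo4* from 1.93 to 0.837. The *Lgr5* value includes the pubertal cell with 172 UMIs, which counts in more than 1 subset. With that weighting 1 member was higher (4 with all cells summed), and of the pathway genes 4 were higher and 2 lower (9 and 1 with all cells summed). A fold of 2 left 2 members and 3 pathway genes higher. No share of all genes is given beside the counts in this paragraph. They do not show whether these genes differ from other genes. TMM scaling, which lowered every log2 ratio by 0.14, gave 2 lower pathway genes. With cells thinned to 3000 UMIs before the subsets were cut, 1 member was lower (2 in unthinned cells), 3 pathway genes were lower, 1 combination of member and subset was lower between stages (5 unthinned, none of which then had 50 UMIs), and 3 combinations were higher in a subset than outside it (5 unthinned). With cells of 1 subset only, 2 combinations were lower between stages and 14 were lower in a subset than outside it (8 with overlapping subsets). Of the shares of cells with a UMI, 1 member was lower and 4 higher after thinning to 3000 UMIs. There were 3 lower after thinning to 5000, 2 lower with at least 2 UMIs asked for, and 2 higher and 3 lower without thinning. The causes were not tested. Across 36 values of *Axin2* in the 6 subsets under 6 alternatives, the ratio ran from 1.10 to 13.5, and 33 were at least 1.5. Another 50 counts under these and other alternatives stayed within 1.5 times their value. *Lgr6* and *Rnf43* had 50 and 25 adult UMIs in Pdgfra+ cells, and 42.0% of the adult *Rspo2* UMIs lay in 10 cells, so their values rest on few counts or cells.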
